A study of Mus musculus with 6 samples.

Results

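The genes of de novo fatty acid and sterol synthesis were examined in brown adipose tissue (BAT) of miR-22 knockout (KO) and wildtype (WT) mice. The set held 37 listed genes, of which 12 code for fatty acid enzymes, 18 for sterol enzymes and 7 for regulators of both branches. A gene was matched to an array probe through the RefSeq accession printed for the probe, which gave 60 probes for 36 of the 37 genes; Acat2 had no matched probe. Of these, 30 passed the filters and were tested among 14711 genes. BAT was taken from male mice aged 8 weeks, 3 WT and 3 lacking miR-22, and its total RNA, labelled with Cy3, was hybridised to Agilent Mouse V2 expression arrays, 1 mouse per array and all 6 arrays on 1 slide. The KO line, which came from the Jackson Laboratory, lacks miR-22 in every tissue and not in brown adipocytes alone, and no further treatment is given for these mice. The study describes its WT controls as littermates, and the labels do not tie single mice to litters.

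Fatty acid synthesis turns cytosolic acetyl-CoA into malonyl-CoA and then into palmitate, which elongases and desaturases extend and unsaturate. Sterol synthesis also starts from acetyl-CoA and passes through mevalonate, isoprenoid units and squalene before the ring system is closed and trimmed to cholesterol. Transcription of both branches is driven by the sterol regulatory element binding proteins (SREBP), SREBP-1 mainly for fatty acid and SREBP-2 mainly for sterol genes, which the escort protein Scap carries out of the endoplasmic reticulum and the Insig proteins hold back. ChREBP, the product of Mlxipl, adds a carbohydrate-dependent input. Brown fat is known as an adipose depot with active de novo lipogenesis, which provides fuel for its mitochondria.

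The deleted miRNA has the following mature sequences in the RefSeq entries on build GRCm38.p6, with the seed (bases 2 to 8) in capitals; they are shown because they are what the KO mice lack.
mmu-miR-22-3p (chr11:75463772-75463793, plus strand): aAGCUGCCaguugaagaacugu
mmu-miR-22-5p (chr11:75463734-75463755, plus strand): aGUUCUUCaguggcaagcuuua
The array has no probe for the mature miRNA, so its loss could not be read here. A probe for the host transcript Mir22hg, on the log2 scale defined below, read 1.20, 1.69 and 1.22 in WT 1, WT 2 and WT 3, against 2.02, 2.11 and 2.23 in KO 1, KO 2 and KO 3, higher in the KO mice without overlap. Where that probe lies relative to the deletion is not given, so it does not check the genotype.

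RefSeq promoter windows, reaching from 250 bases before to 50 bases after a start site, were listed for 30 of the 37 genes. The letters CCAAT, bound by NF-Y, a common partner of SREBP, stood on either strand in at least 1 window of 25 of these 30 genes, and of 13 of the 14 sterol enzymes listed, against 41.1% of all 27025 genes. The Sp1 motif GGGCGG was found for 23 of the 30, against 38.2% of all genes, and the E-box CACGTG for 7 of the 30, against 8.09%. A sterol regulatory element spelled TCACNCCAC was found for Hmgcs1 and Mlxipl only, against 1.44% of all genes. In Mlxipl it stood inside the gene, before a later start site (chr5:135106691-135106890). Of the 10 genes called lower in the KO mice below, 8 had a listed promoter, and 7 of these held CCAAT (all but Acaca) and none TCACNCCAC. The only window listed for Acaca belongs to a start site inside the gene (chr11:84195238-84195437), and the start of the gene was not searched. All these motifs are matches of letters and not measured sites. The last 200 bases before the start site are shown for 4 genes whose values return below. They are Idi1 and Lss from the sterol branch, Fasn from the fatty acid branch and Hmgcs1, which was not called. Capitals mark CCAAT on either strand and, in Hmgcs1, TCACNCCAC. The pair of CCAAT in opposite orientation in Fasn overlap. The stretch of Fasn lies inside the listed span of the gene (chr11:120805958-120825166), before a later start site. That of Lss reaches into the listed span of its gene (chr10:76531565-76557139).
Idi1 (chr13:8885406-8885605, plus strand): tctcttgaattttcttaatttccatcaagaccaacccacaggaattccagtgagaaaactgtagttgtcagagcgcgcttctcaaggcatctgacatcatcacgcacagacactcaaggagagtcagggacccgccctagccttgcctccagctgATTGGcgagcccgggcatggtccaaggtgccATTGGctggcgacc
Lss (chr10:76531405-76531604, plus strand): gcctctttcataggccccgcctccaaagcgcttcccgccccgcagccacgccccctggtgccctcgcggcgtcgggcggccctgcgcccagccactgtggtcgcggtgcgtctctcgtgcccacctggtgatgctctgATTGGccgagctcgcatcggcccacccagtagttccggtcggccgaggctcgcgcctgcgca
Fasn (chr11:120824548-120824747, minus strand): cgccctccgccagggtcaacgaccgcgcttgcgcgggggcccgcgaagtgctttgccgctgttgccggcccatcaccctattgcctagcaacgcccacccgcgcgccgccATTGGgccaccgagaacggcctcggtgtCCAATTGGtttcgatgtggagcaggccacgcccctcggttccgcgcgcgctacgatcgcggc
Hmgcs1 (chr13:119690151-119690350, plus strand): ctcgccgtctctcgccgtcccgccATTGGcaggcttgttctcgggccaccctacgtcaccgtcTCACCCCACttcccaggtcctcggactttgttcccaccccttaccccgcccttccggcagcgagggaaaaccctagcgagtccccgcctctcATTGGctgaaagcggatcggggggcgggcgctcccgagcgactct

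Levels are log2 spot signals minus the 75th percentile of the array, so that 0 is the same rank on every array and a difference of 1 is a doubling. The scanner software marks spots whose pixels or replicates look uneven, and the main analysis left such spots out. These marks fell on 4.87% to 17.1% of the spots of an array, but on 29.0% to 73.1% of its brightest decile, and mostly on WT 3 and KO 1. Lipogenic genes are bright in BAT: 31 of the 60 member probes were marked on at least 1 array, with 26 marked in WT 3, 21 in KO 1 and 7 to 8 in each of the other mice. Fasn, Scd1, Elovl6, Me1, Nsdhl and Thrsp therefore had too few unmarked spots and were not tested in the main analysis. Their values are given below only with marked spots kept. Values of the other genes are given with marked spots left out unless stated, and for some also with marked spots kept. With marked spots kept 36 genes of the set were tested among 16110. No member probe was saturated. A gene was called at an unadjusted p under 0.05 in limma, the threshold of the study's methods, and Benjamini-Hochberg adjustment ran over all genes tested.

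With marked spots left out, 10 of the 30 tested genes were lower in the KO mice and 4 were higher, where 8.82% of all tested genes were called lower and 10% higher. Counted as groups without overlap, 12 of the 30 lay below and 4 above WT, against 17.2% and 13.8% of all genes. The median difference over the 30 was -0.35, against -0.03 over all genes, and 24 of them lay below 0. None of the 30 passed Benjamini-Hochberg adjustment in limma, with the smallest adjusted p at 0.0847, and 27 genes of the array did. The calls are therefore at the unadjusted threshold only.

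**Figure D1:**
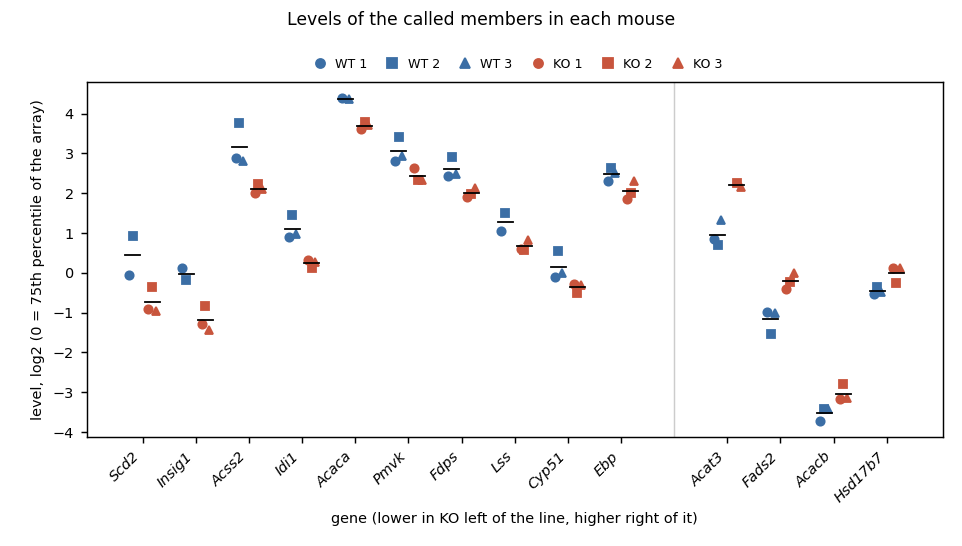
Levels of the 14 genes called at an unadjusted p under 0.05 with marked spots left out. Each symbol is 1 mouse (WT blue, KO red; the vertical axis is log2 signal relative to the 75th percentile of the array) and each black line a group mean; a missing symbol is a marked spot. The 10 genes left of the vertical line were lower in the KO mice, and only Ebp overlapped among them.

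In the fatty acid branch Acss2 and Acaca, which stand at the entry of carbon and at the first committed step, were lower in the KO mice. Acss2, which makes acetyl-CoA from acetate in the cytosol (chr2:155518043-155562743, GRCm38.p6 as for all positions), read 2.89, 3.76 and 2.82 in WT 1, WT 2 and WT 3, against 1.99, 2.23 and 2.11 in KO 1, KO 2 and KO 3. All KO mice lay below all WT mice, at 0.484 times the WT level, a log2 difference of -1.05 ± 0.26 (SE, limma unadjusted p = 0.00535, adjusted p = 0.123). The other Acss2 probe was lower as well, at -0.92. Acaca, the acetyl-CoA carboxylase that supplies malonyl-CoA for synthesis (chr11:84129635-84401651), read 4.39 and 4.36 in WT 1 and WT 3, against 3.61, 3.78 and 3.71 in KO 1, KO 2 and KO 3, with the WT 2 spot marked. Its level in the KO mice was 0.625 times that of the WT mice, a difference of -0.68 ± 0.15 (SE, limma unadjusted p = 0.00423, adjusted p = 0.114). Acaca had 4 probes and all 4 were lower in the KO mice, with differences of -1.06 to -0.68, marked spots kept where a probe could not otherwise be fitted.

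Of the desaturases, Scd2, which introduces the first double bond, was lower and Fads2, the delta-6 desaturase of polyunsaturated fatty acids, was higher. Scd2 (chr19:44293676-44306864) read -0.05 and 0.93 in WT 1 and WT 2, against -0.90, -0.36 and -0.97 in KO 1, KO 2 and KO 3, with a difference of -1.18 ± 0.35 (SE, limma unadjusted p = 0.0145, adjusted p = 0.169). Scd2 could be tested in 15 of 18 processing alternatives, in which the difference ran from -1.37 to -1.07 and was called in 14. With its WT 3 spot marked, Scd2 could not be fitted with the slide row as a block or without WT 1 or WT 2. With marked spots kept, the KO mean differed by -1.05 from WT 3, the only WT mouse in the slide row of the KO mice. Fads2 read -0.98, -1.53 and -1.001 in WT 1, WT 2 and WT 3, against -0.41, -0.23 and -0.011 in KO 1, KO 2 and KO 3, so that each KO mouse exceeded each WT mouse. The level of Fads2 in the KO mice was 1.94 times that of the WT mice, a difference of 0.95 ± 0.20 (SE, limma unadjusted p = 0.00223, adjusted p = 0.0935). A second, much dimmer Fads2 probe gave 0.04 ± 0.39 (SE) with overlapping groups, and with the mean of the 2 probes the difference was 0.50 (limma, unadjusted p = 0.125) and the call was lost. Fads1, the delta-5 desaturase that works on the products of Fads2, differed by -0.05 ± 0.13 (SE) and its groups overlapped.

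Acly, which splits citrate to cytosolic acetyl-CoA, and Elovl5, an elongase of polyunsaturated chains, were not called, with differences of -0.36 ± 0.26 (SE) and -0.36 ± 0.25 (SE). Acacb, the mitochondrial carboxylase whose malonyl-CoA restrains fatty acid oxidation, gave opposite directions on its 2 probes. The dim probe, the only one with enough unmarked spots, was higher in the KO mice by 0.47 ± 0.17 (SE, limma unadjusted p = 0.0260, adjusted p = 0.209). The bright probe, read with marked spots kept, was 4.42, 4.67 and 4.28 in WT 1, WT 2 and WT 3, against 3.99, 4.08 and 4.34 in KO 1, KO 2 and KO 3, a difference of -0.32 ± 0.16 (SE) that did not pass the threshold. No direction is given for Acacb. A dim second probe of Elovl5, unmarked on all arrays, likewise lay above 0, at 0.54, without overlap. In a fit over all kept probes it passed the threshold (limma, unadjusted p = 0.0195).

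In total 8 of the 12 fatty acid enzymes were tested with marked spots left out: 3 were lower, 2 were higher and their median difference was -0.36. With marked spots kept all 12 were tested, 7 were lower, 1 was higher and the median was -0.45. For that setting 11.1% of all 16110 genes were called lower and 9.47% higher. The 4 genes added to the lower count were Fasn, Scd1, Elovl6 and Me1.

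Fasn, the fatty acid synthase that assembles palmitate from malonyl-CoA, read 5.25, 5.62 and 5.04 in WT 1, WT 2 and WT 3, against 4.63, 4.58 and 4.70 in KO 1, KO 2 and KO 3 with marked spots kept. The KO mice lay close together and all below the WT mice, at 0.631 times their level, a difference of -0.67 ± 0.17 (SE, limma unadjusted p = 0.00674, adjusted p = 0.122). Scd1, the main stearoyl-CoA desaturase of adipose tissue, read 5.12, 5.44 and 4.86 in WT 1, WT 2 and WT 3, against 4.54, 4.50 and 4.63 in KO 1, KO 2 and KO 3. Its difference was -0.59 ± 0.17 (SE, limma unadjusted p = 0.0121, adjusted p = 0.146), again without overlap. Me1, the malic enzyme that yields cytosolic NADPH, read 3.18, 4.03 and 3.50 in WT 1, WT 2 and WT 3, against 2.09, 2.90 and 2.68 in KO 1, KO 2 and KO 3, the largest of the 4 differences at -1.01 ± 0.29 (SE, limma unadjusted p = 0.0100, adjusted p = 0.138). The other Me1 probe gave -0.81 with marked spots kept, with overlapping groups and not past the threshold (limma, unadjusted p = 0.121). Elovl6, which extends palmitate to stearate, differed by -0.30 ± 0.12 (SE, limma unadjusted p = 0.0369, adjusted p = 0.217). Marked spots were present for each of these genes in both groups, and for Me1 on 2 of 3 WT and 3 of 3 KO arrays.

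**Figure D2:**
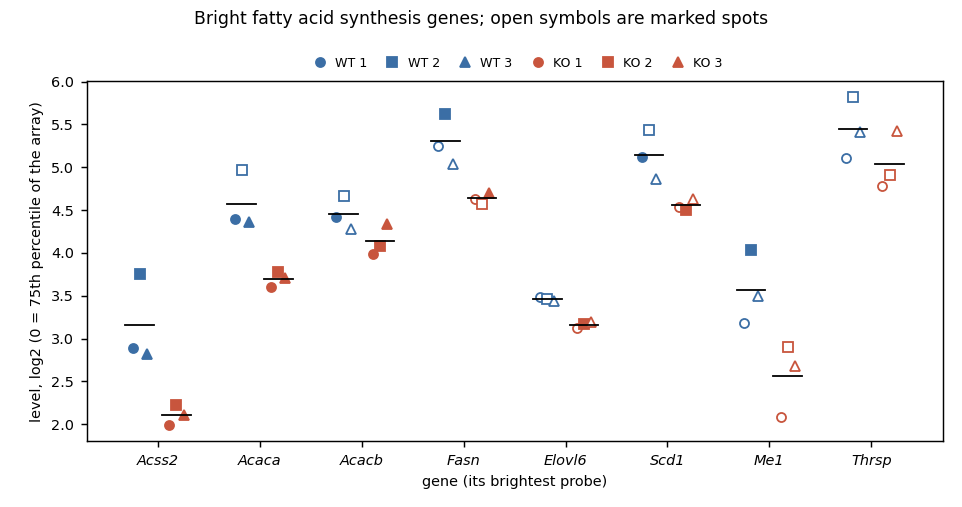
Levels of 8 bright genes of fatty acid synthesis on their brightest probe with marked spots kept (vertical axis, log2 signal relative to the 75th percentile of the array; symbols are mice, black lines group means, and open symbols are spots the scanner software marked). Acss2, Acaca, Fasn, Elovl6, Scd1 and Me1 show no overlap between KO and WT, whereas Acacb and Thrsp overlap.

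Bright genes as a class tended to lie lower in the KO mice on this scale, which moves with the values of Fasn and its neighbours. Over the 607 genes with a mean level above 4, a limit chosen after the values were seen, the median difference with marked spots kept was -0.31, and 13.3% of them were called lower. Quantile normalization, which gives every array the same distribution, brought the median of these 607 genes to -0.04. Under it Fasn differed by -0.36 (limma, unadjusted p = 0.0406) and Me1 by -0.81 (limma, unadjusted p = 0.0206), while Scd1 at -0.28 and Elovl6 at -0.07 no longer passed the threshold. Fasn and Scd1 were among the 607 genes, but Me1 and Elovl6, with mean levels below 4, were not. Quantile normalization by itself draws the median difference of bright genes toward 0. The part of the differences of Fasn, Scd1, Elovl6 and Me1 that belongs to the scale was therefore not tested.

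The sterol branch was lower in the KO mice at several steps from phosphomevalonate to lanosterol and beyond, with Pmvk, Idi1, Fdps, Lss, Cyp51 and Ebp called lower. Of the 18 enzymes, 16 were tested, 6 were lower and 2 were higher, where 8.82% of all genes were lower and 10% higher, and the median was -0.36. One of the genes counted as higher is Acat3, whose probes disagree (below). With marked spots kept 17 were tested, 7 were lower, 1 was higher and the median was -0.37. With marked spots left out the median was thus -0.36 in each branch, but without 1 mouse at a time that of the fatty acid enzymes ran from -0.38 to 0.0034, the highest without WT 1, and that of the sterol enzymes from -0.53 to -0.25. Without WT 1, Scd2 could not be fitted and Elovl5 was read on its dim second probe, at 0.55. The median of the fatty acid enzymes then fell on Fads1, at 0.0034. In that fit Acss2 (-1.18), Acaca (-1.16, on another probe) and Acly (-0.53) lay below 0, and Fads2 (1.05) and Acacb (0.38) above it. No test of one branch against the other was made. Across the whole set with marked spots kept, 15 of 36 were lower and 2 higher, against 11.1% and 9.47% of all genes.

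Hmgcs1, which makes HMG-CoA, read 4.27 and 4.41 in WT 1 and WT 2, against 3.98 and 4.68 in KO 2 and KO 3, a difference of -0.0099 ± 0.28 (SE) with overlapping groups. Mvk and Pmvk, the kinases that phosphorylate mevalonate in turn, were both below the WT mice in all KO mice. Pmvk read 2.82, 3.42 and 2.93 in WT 1, WT 2 and WT 3, against 2.63, 2.33 and 2.34 in KO 1, KO 2 and KO 3, a difference of -0.63 ± 0.20 (SE, limma unadjusted p = 0.0157, adjusted p = 0.174), and its second probe gave -0.70. Mvk differed by -0.37 ± 0.17 (SE) and missed the threshold (limma, unadjusted p = 0.0638). Its dimmer probe differed by -0.94 and passed it in a fit over all kept probes (limma, unadjusted p = 0.00353). Mvd, which decarboxylates the product, lay slightly the other way at 0.21 ± 0.16 (SE) and was not called.

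Idi1, the isomerase that interconverts the activated isoprenoid units (chr13:8885606-8892396), showed the largest fall of the tested sterol enzymes. It read 0.91, 1.45 and 0.97 in WT 1, WT 2 and WT 3, against 0.33, 0.11 and 0.27 in KO 1, KO 2 and KO 3. The KO level was 0.546 times that of WT, a difference of -0.87 ± 0.18 (SE, limma unadjusted p = 0.00204, adjusted p = 0.0908). Idi1 passed the unadjusted threshold under all 18 processing alternatives, with differences of -0.97 to -0.70. Fdps, which joins the units to farnesyl diphosphate, read 2.43, 2.92 and 2.49 in WT 1, WT 2 and WT 3, against 1.89, 1.97 and 2.12 in KO 1, KO 2 and KO 3. All KO mice lay below all WT mice, with a difference of -0.62 ± 0.17 (SE, limma unadjusted p = 0.00955, adjusted p = 0.146).

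Fdft1 and Sqle, which make squalene and its epoxide, were not called. For Fdft1 the tested probe differed by -0.0058 ± 0.18 (SE) and a probe marked on 4 arrays by -0.69 ± 0.31 (SE). Sqle lay below WT in every KO mouse, at -0.34 ± 0.17 (SE, limma unadjusted p = 0.0826). Lss, which closes the ring to lanosterol, read 1.05 and 1.51 in WT 1 and WT 2, against 0.59, 0.58 and 0.83 in KO 1, KO 2 and KO 3, a difference of -0.61 ± 0.20 (SE, limma unadjusted p = 0.0237, adjusted p = 0.202), and its other probes gave -0.92 and -1.19, neither past the threshold. Cyp51, which removes the first methyl group of lanosterol, read -0.11, 0.54 and 0.0055 in WT 1, WT 2 and WT 3, against -0.27, -0.51 and -0.31 in KO 1, KO 2 and KO 3. The difference of Cyp51 was -0.51 ± 0.20 (SE, limma unadjusted p = 0.0394, adjusted p = 0.244), and its much dimmer probe gave -0.05.

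The later steps of demethylation and isomerisation were mixed. Msmo1, the sterol methyl oxidase, differed by -0.02 ± 0.15 (SE) and Sc5d, a late desaturase, by -0.012 ± 0.20 (SE), each with overlapping groups. Hsd17b7, a ketosteroid reductase of the same complex, was higher in the KO mice, reading -0.52, -0.35 and -0.47 in WT 1, WT 2 and WT 3, against 0.13, -0.27 and 0.13 in KO 1, KO 2 and KO 3, by 0.44 ± 0.16 (SE, limma unadjusted p = 0.0284, adjusted p = 0.216). Its second probe gave 0.47. Ebp, the sterol isomerase, read 2.31, 2.62 and 2.51 in WT 1, WT 2 and WT 3, against 1.85, 2.02 and 2.31 in KO 1, KO 2 and KO 3. Ebp was lower, with a difference of -0.42 ± 0.17 (SE, limma unadjusted p = 0.0441, adjusted p = 0.253), but KO 3 reached the lowest WT mouse, and the call was kept under 7 of 18 alternatives. Dhcr7, the final reductase to cholesterol, lay below WT in every KO mouse, at -0.48 ± 0.21 (SE), just short of the threshold (limma, unadjusted p = 0.0511, and 0.0495 with marked spots kept). Nsdhl, read only with marked spots kept, differed by -0.33 ± 0.29 (SE) with overlap.

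Acat3, a cytosolic acetoacetyl-CoA thiolase and close paralogue of Acat2, had the largest rise of the set on the tested probe. That probe read 0.84, 0.69 and 1.34 in WT 1, WT 2 and WT 3, against 2.26 and 2.15 in KO 2 and KO 3, a difference of 1.25 ± 0.23 (SE, limma unadjusted p = 0.00173, adjusted p = 0.0847). A brighter probe of the same gene, marked on 3 arrays and read with marked spots kept, gave 4.12, 4.39 and 4.21 in WT 1, WT 2 and WT 3, against 4.09, 3.89 and 4.43 in KO 1, KO 2 and KO 3, a difference of -0.11 ± 0.18 (SE). Which of the paralogues each probe reads was not tested, and no direction is given for the gene.

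**Figure D3:**
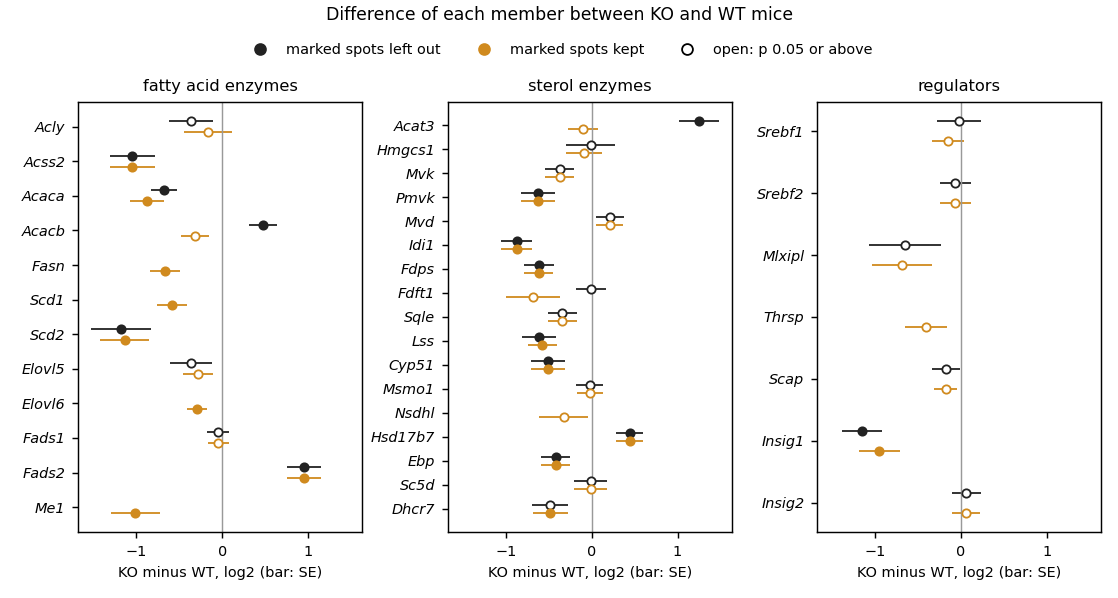
Log2 difference (KO minus WT, horizontal axis) with its standard error for each gene of the set with a fitted probe, in 3 panels by role. Black points leave marked spots out and orange points keep them; filled points have an unadjusted p under 0.05. Acacb, Acat3 and Fdft1 move most between the settings because another probe is then the brightest.

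Of the 7 regulators 6 were tested and only Insig1 was called, with a median difference of -0.12 over the 6. Insig1, which retains the SREBP complex in the endoplasmic reticulum and is itself an SREBP target (chr5:28071412-28078662), read 0.12 and -0.17 in WT 1 and WT 2, against -1.28, -0.83 and -1.43 in KO 1, KO 2 and KO 3. All KO mice lay below these WT mice, at 0.450 times their level, a difference of -1.15 ± 0.23 (SE, limma unadjusted p = 0.00268, adjusted p = 0.0962). Insig1 kept its call under all 15 alternatives in which it was tested, and WT 3, whose spot was marked, read -0.63, still above every KO mouse. With that spot marked, Insig1 could not be fitted with the slide row as a block or without WT 1 or WT 2. With marked spots kept, the KO mean differed by -0.55 from WT 3, the only WT mouse in the slide row of the KO mice. Insig2, its close relative with the same role, differed by 0.06 ± 0.17 (SE) on the tested probe and by -0.19 and -0.40 on the other 2.

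The transcripts of the SREBP proteins did not pass the threshold. Srebf1, which codes for SREBP-1, read 3.56 and 4.15 in WT 1 and WT 2, against 3.85 and 3.81 in KO 2 and KO 3, a difference of -0.02 ± 0.25 (SE), and Srebf2, which codes for SREBP-2, read -2.14, -1.89 and -2.08 in WT 1, WT 2 and WT 3, against -1.93, -2.43 and -1.95 in KO 1, KO 2 and KO 3, a difference of -0.07 ± 0.18 (SE). Scap differed by -0.17 ± 0.16 (SE). Levels of mRNA do not show how much SREBP is cleaved. Mlxipl, the ChREBP gene, read 3.56 and 4.11 in WT 1 and WT 2, against 2.47, 3.23 and 3.84 in KO 1, KO 2 and KO 3: KO 1 was lowest and KO 3 lay within the WT range, so that the difference of -0.65 ± 0.42 (SE) was not called (limma, unadjusted p = 0.170) and a second probe gave 0.01. Thrsp, the lipogenic protein Spot 14, read 5.11, 5.82 and 5.42 in WT 1, WT 2 and WT 3, against 4.78, 4.91 and 5.43 in KO 1, KO 2 and KO 3 with marked spots kept, and KO 3 again lay among the WT mice. Its difference was -0.41 ± 0.25 (SE), and it was not called.

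Read mouse by mouse with marked spots kept, the median of each branch was lower in every KO mouse than in any WT mouse. The median over the 12 fatty acid enzymes of the level minus the WT mean was -0.10, 0.31 and -0.12 in WT 1, WT 2 and WT 3, and -0.53, -0.55 and -0.39 in KO 1, KO 2 and KO 3. Over the 17 sterol enzymes the WT mice stood at -0.18, 0.27 and -0.07, against -0.42, -0.35 and -0.29 for the KO mice. With marked spots left out, the 12 sterol enzymes measured in all mice stood at -0.19, 0.29 and -0.12 in the WT and -0.42, -0.46 and -0.28 in the KO mice. Only 4 fatty acid enzymes (Acss2, Acacb, Fads1 and Fads2) had unmarked spots in all mice, and over these 4 the KO mice stood higher, at 0.11, 0.36 and 0.17, against -0.05, 0.02 and 0.03. The lower median of the fatty acid branch in every KO mouse was thus seen only with marked spots kept. Over all 16110 genes with marked spots kept the median ran from -0.06 to 0.07 in the WT and from -0.09 to 0.01 in the KO mice. WT 2 stood above the other WT mice for 28 of the 36 genes. Without WT 2, and with marked spots left out, 3 of 14 tested sterol enzymes were called lower in place of 6 of 16. The shares of all genes were 5.60% and 8.82%. Counted as groups without overlap with marked spots kept, 16 of the 36 genes lay below and 2 above WT, against 17.1% and 11.6% of all genes.

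**Figure D4:**
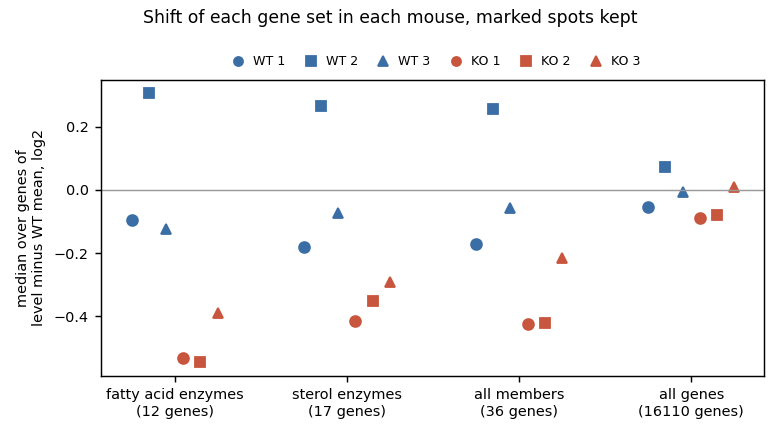
Median over the genes of a set of the level minus the WT mean (vertical axis, log2), for each mouse, with marked spots kept. The 3 KO mice lie below the 3 WT mice for the fatty acid enzymes and the sterol enzymes, whereas over all genes the mice overlap near 0; WT 2 is the highest mouse in every set.

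Position on the slide was unbalanced, since WT 1 and WT 2 lay in row 1 and WT 3 and the 3 KO mice in row 2. With the row as a block, 2.49% of all genes were called lower and 6.56% higher, 1 of 6 tested fatty acid enzymes was lower (Acaca, at -0.66) and 1 of 13 tested sterol enzymes was lower (Idi1, at -0.73), while Fads2 and the dimmer probe of Acat3 stayed higher. Within row 2 alone, where 1 WT mouse faced 3 KO mice and no test was made, the KO mean lay below WT 3 for 11 of 12 fatty acid enzymes, 14 of 17 sterol enzymes and 7 of 7 regulators with marked spots kept, against 55.8% of all 16110 genes. There the medians were -0.29, -0.25 and -0.32, against -0.06 over all genes, and all 3 KO mice lay below WT 3 for 24 of the 36 genes, against 33.6% of all genes. Row and genotype could be told apart only through WT 3. Scd2, Lss and Insig1, whose WT 3 spots were marked, could therefore not be fitted with the row as a block.

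Further lists of related genes were read with the same rule. Of the other fatty acid synthesis genes 26 of 29 were tested, 6 were lower and none higher, with a median of -0.21; over all genes 8.82% were lower and 10% higher, which is also the level to set beside the next lists. Slc25a1, the carrier that exports citrate from mitochondria, was lower, with a difference of -1.29 ± 0.36 (SE), as were Pgd of the NADPH-producing pentose phosphate pathway (-0.78), Hsd17b12 (-0.65) and Hacd2 (-0.56) of the elongation cycle, and Acsf3 (-0.63) and Mcat (-0.33) of mitochondrial fatty acid synthesis. Counted as groups without overlap, 10 of the 26, these 6 among them, lay below and 1 above WT, against 17.2% and 13.8% of all genes.

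Of 8 genes of SREBP processing and turnover 6 were tested, with Mbtps2, the site-2 protease that releases SREBP, lower, at -0.42. Rnf145, a ubiquitin ligase, and Lpin1, a phosphatase that restrains nuclear SREBP, were higher by 0.76 and 0.59 on dim probes, and neither was called on the probe used with marked spots kept. Of 13 genes of sterol transport, storage and LXR signalling 11 were tested. Abcg1, which exports cholesterol, was higher by 0.74, Soat1, which esterifies it, was higher by 0.49, and Nr1h2, the receptor LXR-beta, was lower, at -0.38. None of the genes named from these lists passed Benjamini-Hochberg adjustment in limma.

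The tissue was checked with marker lists, with marked spots kept. Ucp1, the uncoupling protein that defines brown fat, read 5.51, 5.85 and 5.53 in WT 1, WT 2 and WT 3, against 5.10, 4.999 and 5.65 in KO 1, KO 2 and KO 3. The marker counts stand beside 11.1% of all genes lower and 9.47% higher in this setting. Of 12 brown adipocyte markers 2 were lower (Ppargc1a and Otop1). The median difference of the 12 was -0.35, beside -0.36 for the 36 genes of the set in this setting. The summed signal of the 12, as a multiple of the 75th percentile, was 152 to 186 in the WT and 105 to 156 in the KO mice. None of 9 pan-adipocyte markers was called (limma, unadjusted threshold); their median difference was -0.29, and their sums were 236 to 315 in the WT and 183, 185 and 269 in KO 1, KO 2 and KO 3. KO 3 thus had an adipocyte signal within the WT range, and KO 1 and KO 2 lay below it; the part of this signal in the differences above was not tested. In bulk tissue, fewer adipocytes and less RNA per adipocyte cannot be told apart.

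Markers of other cells varied between mice. Skeletal muscle genes, 20 of 20 tested, summed to 12.5 to 158 in the WT and 38.0 to 257 in the KO mice, with WT 3 lowest, and none was called. Macrophage markers summed to 44.4 to 48.2 and 40.8 to 50.8, with C1qb higher. The brightest of them, Itgam, weighs most in these sums and differed by -0.35. Of the other macrophage markers Csf1r stood at -0.01 and the rest above 0, and the median of the list was 0.17. Endothelial markers summed to 16.9 to 18.6 and 15.7 to 18.3 with none called, and white adipocyte markers to 10.9 to 16.1 and 9.06 to 16.5 with Hoxc8 lower. Erythroid genes summed to 40.0 to 48.8 and 35.4 to 48.0 with none called. Of 8 epithelial markers only Krt79 and Krt18 were tested; Krt79 was lower, at -0.99, and Krt18 higher. The part of these cells in the differences above was not tested.

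**Figure D5:**
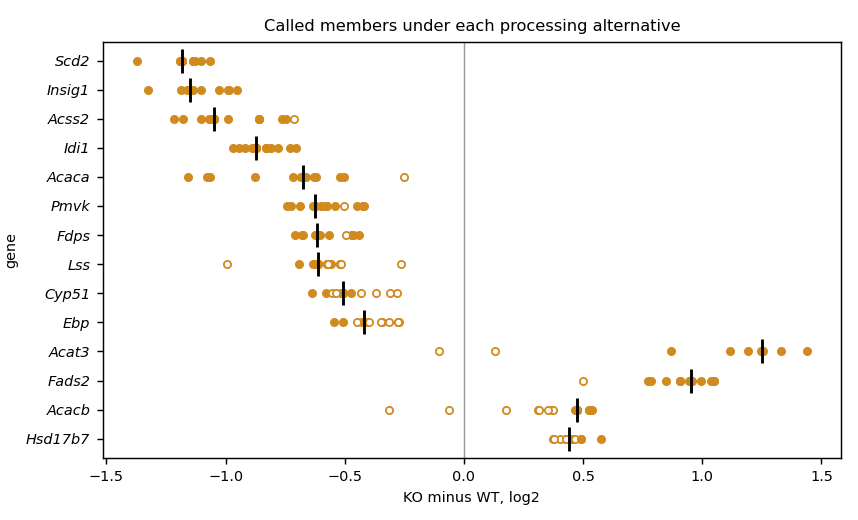
Log2 difference (KO minus WT, horizontal axis) of the 14 called genes under each processing alternative (orange points, filled where the unadjusted p is under 0.05) beside the value with marked spots left out (black bar). Idi1 stays filled throughout, and Insig1 in the 15 alternatives that could fit it, which do not include the slide row as a block. Ebp and Cyp51 lose the call often, and Acat3 and Acacb reach both sides of 0.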

How the data were processed

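Gene expression of BAT was measured on 6 single-colour Agilent arrays, 3 for WT and 3 for KO mice. The deposited scanner files hold processed spot intensity, already corrected for background by Agilent Feature Extraction, version 10.7 per the labels and 11.5.1.1 per the file headers. A second table holds log2 values that the authors normalized, for 27497 probes; its columns correlated with their own arrays at 0.9998 or above, its normalization is not given in the sources used here, and it served as an alternative.

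Intensity was divided by the array's 75th percentile over non-control spots and put on a log2 scale; 75th percentiles ran from 1435 to 2633. Spots marked as non-uniform or population outliers were left out. A probe was kept if well above background on at least 3 arrays with at least 2 unmarked values per group, and the brightest such probe stood for a gene. Of 56605 probes, 33767 matched a RefSeq gene. limma 3.58.1 in R 4.3.3 (lmFit and eBayes) was fitted over all genes; tests were two-sided, called at an unadjusted p under 0.05, with Benjamini-Hochberg adjustment over all genes. The study's methods name SAM at that threshold, which was not run. The code was tested on simulated data.

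All listed genes were named, as were genes of the other lists past the threshold, some of which, with 1 list of other sterol genes, are not reported here; the genes and lists were chosen with earlier results of these data known. Counts and medians of a list are descriptions and no list was tested. Each mouse was 1 sample, and replicate numbers follow the order of the records. The number of arrays limits the precision. Alternatives changed the scaling, background correction, probe filter, choice of probe, marked spots, test, slide row and mice. Promoter and miRNA sequences came from RefSeq (GRCm38.p6), matched by symbol; motifs were counted with Python 3.11.15 and figures drawn with matplotlib 3.10.9.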

Additional observations from a re-analysis of the deposited data

How the results depend on the processing

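The median of the sterol enzymes stayed below 0 under all alternatives. Quantile normalization and normexp background correction each left 1 of 8 tested fatty acid enzymes higher, where 7.95% and 6.95% of all genes were higher. They also turned Fdft1 (0.14 and 0.11), Hmgcs1 (0.20 and 0.18) and Srebf1 (0.20 and 0.19). With the authors' processed values 1 of 8 fatty acid and 1 of 13 sterol enzymes tested were higher, against 8.56% of all genes. There the fatty acid median was -0.27, Srebf1 was at 0.11 and Msmo1 at 1.0e-05. The mean of a gene's probes gave 1 of 8 fatty acid enzymes higher and 3 of 16 sterol enzymes lower, against 9.63% and 6.83% of all genes. There the fatty acid median was -0.15, with Elovl5 at 0.24, Insig2 at -0.36, Mlxipl at 0.11 and Msmo1 at 0.039. A marked spot left its probe out of the mean on that array only, so arrays could average different probes of unlike brightness. Acaca thus stood at -0.25 ± 0.39 (SE), although its averaged probes gave -1.03 to -0.68. Lss stood at -0.26 ± 0.57 (SE), although its probes gave -1.19 to -0.61. The SE of Elovl5 was 1.24. With marked spots kept 7 of 12 fatty acid enzymes were lower and 1 of each branch was higher, against 11.1% and 9.47% of all genes. The fatty acid median was -0.45, and Acacb (-0.32) and Acat3 (-0.11) turned with their other probe. With marked spots kept and quantile normalization 5 of 12 fatty acid enzymes were lower and 1 of each branch was higher, against 10.6% and 8.01% of all genes. The fatty acid median was then -0.20, with Acacb at -0.061, Hmgcs1 at 0.15 and Srebf1 at 0.091. The methods' t-test called 3 of 16 sterol enzymes lower, against 9.35% of all genes. With the slide row as a block 1 gene was lower and 1 higher in each branch, of 6 fatty acid and 13 sterol enzymes tested. Of all genes 308 (2.49%) were lower and 810 (6.56%) higher. The fatty acid median was -0.16, Insig2 was at -0.15 and Sc5d at 0.087. Fits without 1 mouse at a time called 3 to 6 sterol enzymes lower and 0 to 2 higher, of 13 to 16 tested. They called 716 (5.60%, without WT 2) to 1375 (10.3%, without KO 3) of all genes lower and 8.34% to 9.76% higher. Fatty acid medians ran from -0.38 to 0.0034, the highest without WT 1, where other probes were then tested. Over these 6 fits Elovl5 ran from -0.36 to 0.69, Mlxipl from -0.98 to 0.13, Fads1 from -0.078 to 0.0034, Insig2 from -0.067 to 0.16, Msmo1 from -0.14 to 0.088, Sc5d from -0.16 to 0.13 and Srebf2 from -0.15 to 0.10. Sterol enzymes called lower numbered 3 without WT 2, KO 1 or KO 2. After Benjamini-Hochberg adjustment 1 gene of the set passed with the filter of all 6 arrays, namely Acat3, higher on its dimmer probe. With eBayes trend and robust 4 passed, Idi1 and Insig1 lower, and Fads2 and the same Acat3 probe higher. None passed under the other alternatives. Apart from the change of the probe or probes read, the cause of these changes was not tested. No paired analysis was possible because the mouse numbers in the labels are not shared between the groups.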
